A study of Mus musculus with 4 samples.

Results

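Transcripts of the p53 family and of the main proteins that bind or restrain p53 were measured on 4 Affymetrix arrays of mouse stem cell cultures. The set was defined by gene symbol as Trp53, its paralogues Trp63 and Trp73, the inhibitors Mdm2 and Mdm4, and the p53-binding protein gene Trp53bp1. Of these 6 genes, 5 were represented, by 19 of the 45037 probe sets used and among 18193 genes; Trp53 was not analysed here. A probe set is a group of short oligonucleotides on the array that reads 1 stretch of a transcript, and most of these genes have several.

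The arrays came from germline stem (GS) cells, multipotent germline stem (mGS) cells, R1 embryonic stem (ES) cells, and GS cells of Trp53 knockout mice, whose sample title adds the strain name ICR. GS cells are spermatogonial stem cells propagated in culture, and mGS cells are ES-like cells that can arise from them. GS cells were kept in a modified StemPro-34 medium, while mGS and ES cells were kept in ordinary ES cell medium, so cell type and medium changed together. The knockout allele, the strain of the other cultures, the passage numbers and any pooling were not given in the sources used here. Genotype and any difference of strain or line therefore cannot be told apart between the knockout and GS arrays. Each culture was hybridised once, so differences are described by their size, with no replicate check and no p-value, and having 4 arrays in all bounds how precise any value can be.

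p53 is a transcription factor that is kept scarce in unstressed cells and is stabilised by DNA damage, after which it turns on genes of cell cycle arrest, repair and apoptosis. Mdm2 is the ubiquitin ligase that marks p53 for degradation and is itself a transcriptional target of p53, which closes a feedback loop, and Mdm4 is a related protein that binds p53 and blocks its activity. The paralogue p63 guards the oocyte genome and maintains stratified epithelia, p73 acts in multiciliated cells and neurons, and 53BP1, the product of Trp53bp1, is an adaptor that gathers at broken DNA and favours end joining. In the germ line, loss of p53 is known to ease the emergence of multipotent cells from GS cultures.

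Among the 5 genes, Trp53bp1 was the one that separated the cultures most. Its brightest probe set was 2.45-fold lower on the mGS array than on the GS array and lower again on the ES array. With the scaling used here it was nearly level between the knockout and GS arrays. Mdm2 and Mdm4 were read on every array, with differences under 2-fold at their brightest probe sets. Trp63 was not detected on any array, and Trp73 was detected on the mGS array only.

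Values are signals normalised so that all arrays share 1 distribution, and a signal under the array median, 82.7, counts as not detected. Of the 19 probe sets, 6 were detected on all 4 arrays, 6 on 1 to 3 arrays and 7 on none. Over all probe sets, 39.0% were detected on all 4 arrays, 38.2% on none and the rest on 1 to 3. By array, the GS and mGS arrays each detected 8, the knockout array 9 and the ES array 10. A threshold at the median fixes the share over all probe sets at 50% on each array, and these counts were near it. Some values lay close to the threshold. An Mdm4 probe set (1453982_at) read 82.7 on the knockout array, at the median itself, and a Trp53bp1 probe set (1442316_x_at) read 84.0 on the ES array, just inside. The nearest values outside were 66.1 and 64.8, from other Trp53bp1 probe sets on the mGS array.

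**Figure D1:**
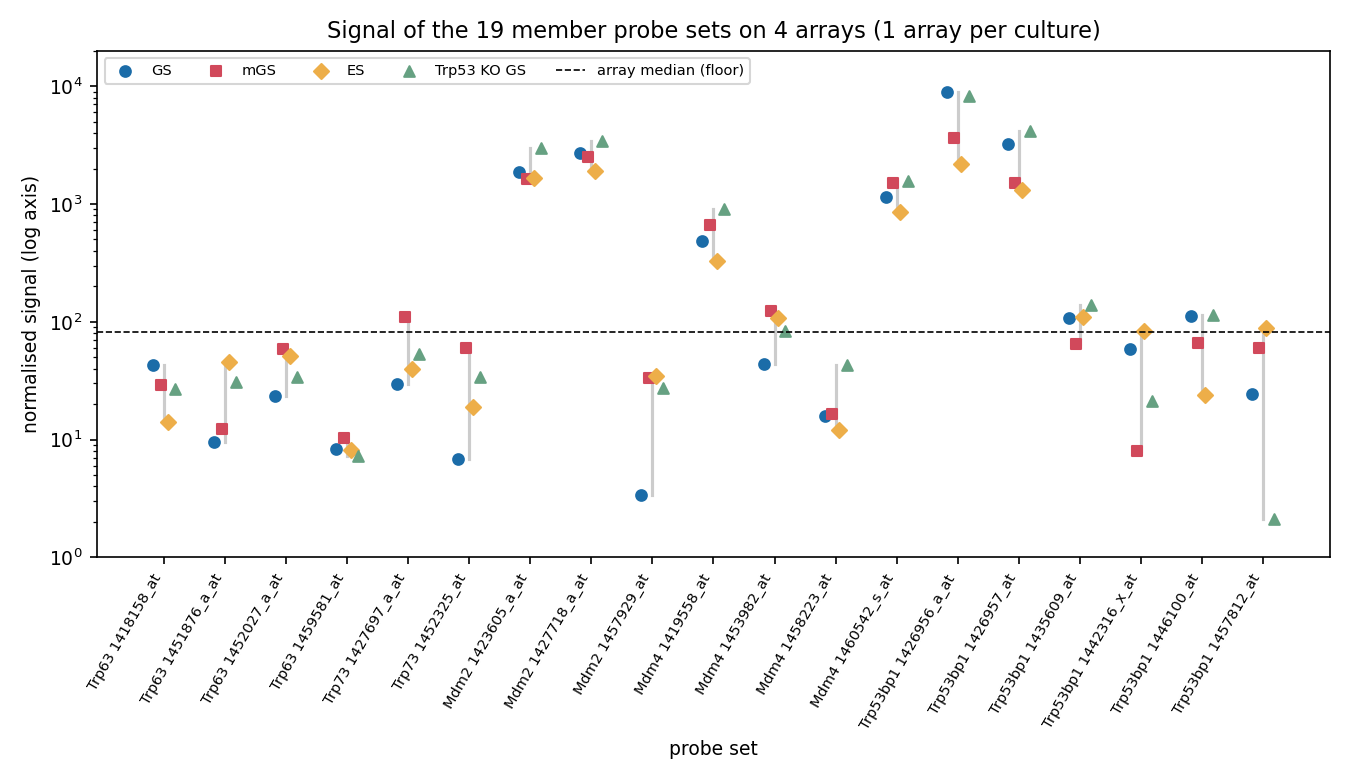
Normalised signal (log axis) of each of the 19 probe sets (horizontal axis) on the GS, mGS, ES and Trp53 knockout GS arrays, 1 point per array; grey lines join the lowest and highest value and the dashed line is the array median of 82.7. Trp53bp1 probe set 1426956_a_at reaches 8905 on GS and 2174 on ES, whereas all 4 Trp63 probe sets lie under the dashed line on every array.

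Sequence upstream of the start site is shown for Trp53bp1, the gene that differed most, and for Mdm2, the gene that p53 itself is known to induce. Both are RefSeq windows of 250 bases ending just before an annotated start, on the minus strand of build GRCm38.p6, at chr2:121271408-121271657 for Trp53bp1 and chr10:117710759-117711008 for Mdm2. Capitals mark matches on either strand to any of 4 motifs. They are the GC box, spelled GGGCGG, the box bound by the factor NF-Y, spelled CCAAT, the core of a cAMP response element, spelled TGACG, and the p53 half-site consensus.
Trp53bp1: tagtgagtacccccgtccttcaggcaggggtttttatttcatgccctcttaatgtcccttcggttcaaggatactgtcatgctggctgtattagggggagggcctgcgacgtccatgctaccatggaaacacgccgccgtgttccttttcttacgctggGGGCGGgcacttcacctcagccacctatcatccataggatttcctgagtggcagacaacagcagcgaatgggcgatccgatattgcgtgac
Mdm2: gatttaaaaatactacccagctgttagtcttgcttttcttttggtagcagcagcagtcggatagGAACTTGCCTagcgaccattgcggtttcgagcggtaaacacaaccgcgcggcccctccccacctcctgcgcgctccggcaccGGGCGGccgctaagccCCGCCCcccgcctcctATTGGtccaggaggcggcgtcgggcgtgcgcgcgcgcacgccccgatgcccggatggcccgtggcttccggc
The Trp53bp1 window held 1 GC box and no match to the other motifs. The Mdm2 window held 2 GC boxes, 1 CCAAT box and 1 p53 half-site, the last ending 177 bases before the start. Of all 32851 windows of this length, 32.7% held a GC box, 33.8% a CCAAT box, 17.8% the TGACG core and 7.13% a p53 half-site. A match is a string of letters and was not tested for binding. The well-known p53 response elements of Mdm2 lie in its first intron, outside this window. The windows differed in composition, with 54.4% G and C for Trp53bp1 and 65.6% for Mdm2, against a median of 52.4% over all windows. In all, 4 of the 5 genes had a window in the table.

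The paralogues came first among the transcription factors. Trp63 has 4 probe sets, and its highest value anywhere was 58.7, from 1452027_a_at on the mGS array. That probe set read 23.6 on GS, 51.3 on ES and 34.0 on the knockout array, all under the threshold. The other 3 Trp63 probe sets ranged from 7.22 to 45.6. No difference is given for Trp63, since values under the threshold have no order.

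Trp73 has 2 probe sets. The brighter, 1427697_a_at, read 29.5 on GS, 110 on mGS, 40.1 on ES and 53.2 on the knockout array. Only the mGS value was over the threshold, so mGS exceeded both GS and ES by at least 1.33-fold. The second probe set, 1452325_at, was under the threshold on all arrays, at 60.1 or less.

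Markers of the tissues best known for these paralogues were partly detected. Of 7 measured basal epithelial genes, 1 was detected on GS, 3 on mGS, 3 on ES and 1 on the knockout array. The keratin genes Krt14 and Krt15 were under the threshold on all 4. The keratin gene Krt17 was over it on mGS and ES, at 110 and 415, and Krt5 on ES alone, at 98.0. The summed signal of the list was 201 on GS, 267 on the knockout, 896 on mGS and 1679 on ES. The 14-3-3 sigma gene Sfn accounted for much of the sum on mGS and ES, at 533 and 1041. Of 5 measured genes of multiciliated cells, 3 to 5 were detected per array. The transcription factor gene Foxj1 was just over the threshold on GS and mGS, at 94.4 and 105, and under it on ES and the knockout. The transcription factor gene Myb read 609 on mGS and 745 on ES, and Rfx3, a regulator of cilium genes, 381 on GS and 556 on the knockout, both clearly over the threshold. Their summed signal ran from 637 on GS to 1383 on mGS, and 1023 and 1206 on the knockout and ES arrays. The part of such cells in the Trp63 and Trp73 signals was not tested.

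The inhibitors were read clearly in all cultures. For Mdm2, the brightest probe set (1427718_a_at) read 2698 on GS, 3425 on the knockout, 2526 on mGS and 1894 on ES. The order was knockout, GS, mGS, ES, and each step between neighbours was at most 0.42 on the log2 scale. As an error scale in place of replicates, the standard deviation between 2 probe sets of the same gene was 0.47 for the difference of mGS and GS, 0.41 for ES and mGS, and 0.46 for knockout and GS, over 4474 to 4710 genes. It covers probes and not cultures. At this probe set, mGS and GS did not differ beyond that spread (log2 difference -0.09), nor did knockout and GS (0.34), and ES and mGS stood at its edge (-0.42).

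The second Mdm2 probe set, 1423605_a_at, read 1867 on GS, 3015 on the knockout, 1623 on mGS and 1664 on ES. It shared the knockout array as the highest, by 1.61-fold over GS, a log2 difference of 0.69 that lay beyond the probe set spread of 0.46. It gave ES and mGS almost the same level, with a log2 difference of 0.04, where the brightest probe set had ES lower by 1.33-fold. The third, 1457929_at, was under the threshold on every array, from 3.35 on GS to 34.5 on ES.

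Mdm2, which p53 is known to induce, was not lower in the culture labelled as lacking p53. Both informative probe sets had the knockout above GS, by 1.27-fold and 1.61-fold. Among all genes 59.2% were at least as far apart as 1.27-fold in this comparison. The value also depended on scaling: with the arrays centred on their medians, the log2 differences became 0.05 and 0.40. The label could not be checked at the targeted gene, and the bioC hybridisation control, a bacterial RNA added to the mix, read 602 on the knockout array against 3066 to 3499 on the others.

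Mdm4 lacks the strong ligase activity of Mdm2. Its brightest probe set (1460542_s_at) read 1157 on GS, 1560 on the knockout, 1512 on mGS and 859 on ES. The ES array was the lowest and the knockout and mGS arrays were level with each other. ES was 1.76-fold lower than mGS, a log2 difference of -0.82 against a probe set spread of 0.41, and 17.4% of genes were at least that far apart. The differences of mGS and of the knockout from GS, 1.31-fold and 1.35-fold higher, were within the spread at this probe set.

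The other informative Mdm4 probe set (1419558_at) gave the same order of arrays with wider steps. It read 486 on GS, 900 on the knockout, 669 on mGS and 326 on ES. ES was 2.05-fold lower than mGS there, and the knockout was 1.85-fold higher than GS, a log2 difference of 0.89 that lay beyond the spread of 0.46. The suffix _s_at marks probes that can match more than 1 transcript or gene, whereas 1419558_at carries no such mark. The remaining pair read 43.4 to 123 for 1453982_at and 12.1 to 42.9 for 1458223_at, the latter not detected anywhere.

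Trp53bp1 has 6 probe sets, of which 2 were bright. The first, 1426956_a_at, read 8905 on GS, 8334 on the knockout, 3634 on mGS and 2174 on ES. Both GS cultures read higher than both cultures in ES medium. How many of all probe sets share this order was not counted. The mGS array was 2.45-fold below GS, a log2 difference of -1.29 against a probe set spread of 0.47. ES was a further 1.67-fold below mGS, and from the highest to the lowest array the ratio was 4.10. Knockout and GS differed by 1.07-fold. This log2 difference of -0.10 depended on scaling: it was -0.23 with the values as deposited and -0.44 with arrays centred on their medians.

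The second bright probe set, 1426957_at, read 3240 on GS, 4164 on the knockout, 1510 on mGS and 1317 on ES. It had the same division into a high and a low pair. Here mGS was 2.15-fold below GS, but ES and mGS differed by 1.15-fold only, which is within the probe set spread, and the knockout was 1.29-fold above GS instead of slightly below it. The step between the pairs was therefore read by both probe sets, and the order within each pair was not settled.

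The 4 dim Trp53bp1 probe sets did not repeat this pattern as a group. One of them, 1446100_at, read 113 on GS and 115 on the knockout and was under the threshold on mGS and ES, at 66.1 and 23.9. Another, 1435609_at, read 108, 138 and 110 on GS, knockout and ES and 64.8 on mGS. The last pair passed on the ES array alone, 1442316_x_at at 84.0 and 1457812_at at 88.7. Where they were detected, these probe sets read between 84.0 and 138.

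Set against the whole array, 1 of the 4 members compared between mGS and GS was at least 2-fold apart, Trp53bp1 on the lower side, where 16.5% of 11981 genes were lower by that much and 15.3% higher. Its distance was matched or exceeded by 22.2% of genes, so it was not unusual in that comparison. None of the 4 compared between ES and mGS was 2-fold apart at its brightest probe set, where 6.9% of 11816 genes were higher and 5.13% lower. None of the 3 compared between knockout and GS was, where 9.77% of 11623 genes were higher and 6.93% lower. The comparisons of mGS and of the knockout with GS share the GS array.

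In the division of both ES-medium arrays from both GS arrays, Trp53bp1 was at least 2.29-fold lower in every cross pair, where 8.38% of 12897 genes passed this mark on the lower side and 7.65% on the higher. With the values as deposited the smallest gap was -0.90 on the log2 scale, and with arrays centred on their medians -0.62, both short of 2-fold. Mdm2, Mdm4 and Trp73 did not separate the pairs by 2-fold. In RNA from whole cultures, fewer cells that express a gene and less RNA per cell cannot be told apart.

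**Figure D2:**
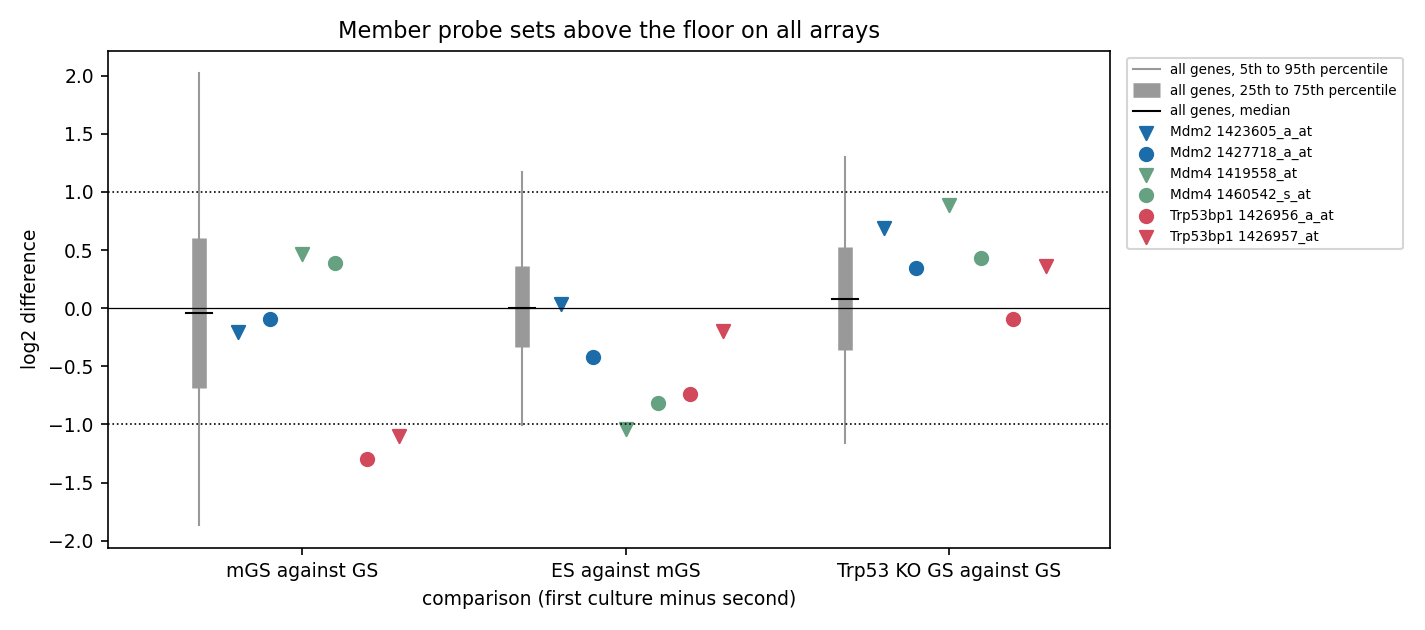
Log2 difference (vertical axis) in each comparison for the 6 probe sets detected on all 4 arrays, circles for the brightest probe set of a gene and triangles for the other; grey bars give the spread of all genes and dotted lines mark 2-fold. Both Trp53bp1 probe sets lie under the lower dotted line for mGS against GS, at -1.29 and -1.10, and the Mdm2 and Mdm4 probe sets lie above 0 for the knockout against GS.

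The labels were checked against marker genes. All 6 measured germline stem cell markers were detected on the GS and knockout arrays, with summed signals of 49646 and 49114, against 1734 on mGS and 1570 on ES. Within that list the knockout array was lower than GS by 2-fold or more for 2 genes, those of the GDNF receptor parts Ret and Gfra1, by 2.83-fold and 2.39-fold. Of 7 pluripotent cell markers, all were detected on mGS and ES, 4 on GS and 5 on the knockout. Pou5f1, Sox2, Zfp42 and Dppa5a were detected on all arrays, with Pou5f1 at 1847 on GS, while Nanog and the Nodal co-receptor gene Tdgf1 were under the threshold on both GS arrays. Of the 5 compared between knockout and GS, only Sox2 was 2-fold apart. It was 5.79-fold lower on the knockout, at 185 against 1070. The summed signal of 8 fibroblast genes was 894 on GS, 1218 on mGS, 1616 on the knockout and 16961 on ES, so fibroblast transcripts were highest on the array where both bright Trp53bp1 and both bright Mdm4 probe sets were lowest; their part in those values was not tested. Sertoli and Leydig cell markers had summed signals between 180 and 1089 on all arrays. Of 5 measured Sertoli genes, 3 were detected on GS, 2 on mGS, 4 on ES and 2 on the knockout. Of 4 measured Leydig genes, 1, 2, 2 and 1 were. Wt1 and Star were detected on all 4 arrays, and Clu read 678 and Cyp11a1 329 on mGS. The anti-Müllerian hormone gene Amh and the steroidogenic genes Cyp17a1 and Hsd3b1 were under the threshold throughout. The median of 6 probe sets for the added dap control was 271 on GS and 255 on mGS against 2545 on ES and 3055 on the knockout, so it also differed between ES and mGS and between knockout and GS; its part in the members' differences was not tested. The ratio of 3′ to 5′ probe sets ran from 0.66 to 0.83 for Gapdh and from 1.31 to 1.51 for Actb.

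Genes with the most similar profiles were found by the root mean square difference of mean-centred log2 signals over the 4 arrays, among 8877 named genes detected on all of them. Closest to Trp53bp1 were Tdp2, which encodes a repair enzyme that removes trapped topoisomerase II from DNA ends, at 0.03, Tmx4, a thioredoxin-related membrane protein gene, at 0.04, and the cofilin phosphatase gene Ssh2 at 0.08. Tdp2 read 10240 on GS, 9397 on the knockout, 4195 on mGS and 2366 on ES. Only 6 genes lay within 0.1 of Trp53bp1, against 19 for Mdm4 and 69 for Mdm2. Closest to Mdm2 were Nrde2, Rrnad1 and Phf23, and closest to Mdm4 were the sarcoglycan gene Sgcb, Tmed4 and Dhrs7b. With 4 arrays, some genes will match any profile closely. Each profile is that of the brightest probe set alone. The other bright Trp53bp1 probe set had log2 differences of -0.20 for ES against mGS and 0.36 for knockout against GS. At the brightest these were -0.74 and -0.10, so the closest genes are given for that probe set only.

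**Figure D3:**
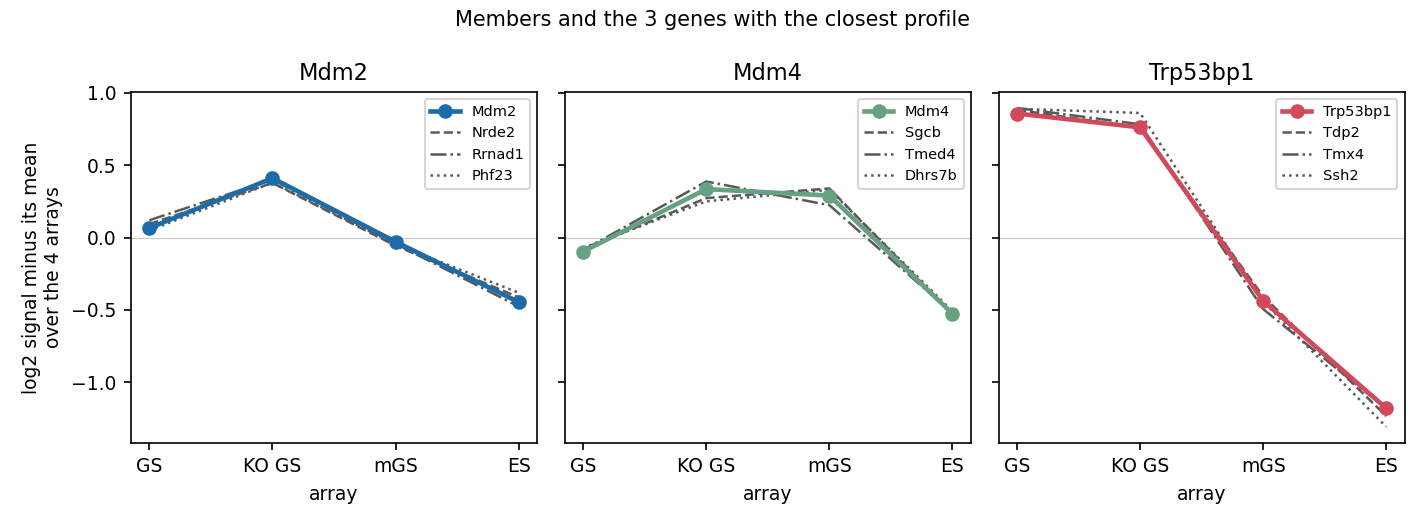
Log2 signal minus its mean over the 4 arrays (vertical axis) for Mdm2, Mdm4 and Trp53bp1 (thick lines, brightest probe set) and the 3 genes closest to each (thin lines), by array. The GS and knockout values of Trp53bp1 and its closest genes lie together above 0 and the mGS and ES values below 0, while Mdm2 is highest on the knockout array.

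Genes that act on p53 stability were mixed between mGS and GS cells. Of 19 compared, 1 was higher on the mGS array by 2-fold or more and 4 were lower. The shares over all genes were 15.3% and 16.5%. The median log2 difference was -0.03 beside -0.04 for all genes. The split moved with scaling, to 2 higher against 4 lower on the deposited scale and to 4 against 4 with centred arrays, where the median was 0.23. Usp10, a deubiquitinase that can rescue p53 from degradation, was 4.54-fold higher, with signals of 3769 on mGS and 830 on GS. The deubiquitinase gene Usp2, which acts on Mdm2, was 3.56-fold lower, and Cdkn2a and the ligase gene Cul9 were at least 3.39-fold and 2.78-fold lower. Cdkn2a encodes both the Mdm2 inhibitor Arf and the CDK inhibitor p16, which its probe set value does not separate here. It read 280 on GS and was not detected on mGS; the Cul9 value on mGS, 82.6, was just under the threshold.

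None of 18 such genes was 2-fold apart between ES and mGS, where 6.9% of all genes were higher and 5.13% lower. On the knockout array 2 of 19 were higher than on GS, the ligase gene Trim24 by 2.35-fold and the deubiquitinase gene Usp28 by 2.26-fold, and none was lower. Among all genes 9.77% were higher by 2-fold or more in this comparison and 6.93% lower, so the count was near the general share. With arrays centred on their medians neither Trim24 nor Usp28 reached 2-fold, at 0.94 and 0.80 on the log2 scale. Mdm2 and Mdm4, the main ligase and its partner, were within 2-fold of GS at all their detected probe sets on this array.

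Among 21 genes for enzymes that modify p53, 3 were higher and 3 lower on mGS than on GS by 2-fold or more. The shares over all genes were close to this, 15.3% and 16.5%. The median was -0.09 beside -0.04 for all genes. The checkpoint kinase gene Chek2 was 2.51-fold, the kinase gene Hipk2 2.25-fold and the methyltransferase gene Smyd2 2.15-fold higher. As deposited Hipk2 stood at 0.995 on the log2 scale and the split was 2 higher and 4 lower, and with centred arrays it was 4 and 3. The acetyltransferase gene Crebbp was 3.36-fold lower, and the damage kinase genes Prkdc and Atr were 2.56-fold and 2.45-fold lower. None was 2-fold apart between ES and mGS, where 6.9% of all genes were higher and 5.13% lower. On the knockout array the mitotic kinase gene Aurka was 4.08-fold and the acetyltransferase gene Kat2b 2.99-fold lower than on GS. None of the 21 was higher there by 2-fold. Among all genes 6.93% were lower and 9.77% higher in that comparison.

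Of 8 cofactor and ligase genes of the p53 family, 6 were within 2-fold between mGS and GS, 1 was higher and 1 lower. The shares over all genes were 15.3% higher and 16.5% lower. Pml, which encodes the core protein of nuclear bodies where p53 is modified, exceeded GS on mGS by at least 32.8-fold: it read 19.3 on GS, 142 on the knockout, 2711 on mGS and 2027 on ES. Ppp1r13b, the gene of the p53 cofactor ASPP1, went the other way and was 6.72-fold lower, at 1715 on GS, 3984 on the knockout, 255 on mGS and 298 on ES. Both split the arrays by medium as Trp53bp1 did, Pml in the opposite direction. Ppp1r13b was also 2.32-fold higher on the knockout than on GS, or 0.85 on the log2 scale with centred arrays. The p63 and p73 ligase gene Itch ranged only from 720 to 883.

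Other genes of the chromatin response at DNA breaks were mostly within 2-fold. Of 17 compared between mGS and GS, none was 2-fold lower and 1 higher, the shieldin-complex gene Mad2l2, by 2.48-fold, beside 16.5% and 15.3% of all genes. The median was 0.25 beside -0.04 for all genes. As deposited 2 were higher, and with centred arrays 3, with none lower in either. The lowest gene of this list had a log2 difference of -0.78, whereas Trp53bp1 stood at -1.29. That contrast does not extend to the damage and checkpoint kinase genes, which were kept in the list of modifying enzymes. They stood at -1.36 for Prkdc, -1.29 for Atr, -0.99 for Atm, -0.18 for Chek1 and 1.33 for Chek2. Prkdc, Atr and Atm also read higher on both GS arrays than on both ES-medium arrays, as Trp53bp1 did. Between ES and mGS, Rad50, of the complex that senses DNA ends, was 2.29-fold lower. So was the Brca1 partner gene Bard1, by 2.52-fold, although it read only 95.3 on ES. None was 2-fold higher, where 6.9% of all genes were higher and 5.13% lower. On the knockout array Bard1 and the ubiquitin ligase gene Rnf168, which writes the mark that 53BP1 reads, were 2.22-fold and 2.05-fold lower than on GS. None was 2-fold higher, where 6.93% of all genes were lower and 9.77% higher. The Rnf168 difference was -0.95 with the values as deposited. The median of the list on the knockout array was -0.28 beside 0.07 for all genes.

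Transcriptional targets of p53 were divided in each comparison. Of 21 compared between mGS and GS, 9 were higher and 3 lower by 2-fold or more, beside 15.3% and 16.5% of all genes, and the median was 0.45 beside -0.04 for all genes. The apoptosis gene Perp exceeded GS by at least 16.4-fold, Zmat3, which encodes a zinc finger protein that binds RNA, was 8.83-fold and Phlda3, a repressor of Akt, 5.54-fold higher, while the repair genes Ddb2 and Xpc were 3.60-fold and 2.07-fold and the stress gene Sesn1 2.51-fold lower. On the knockout array 4 of 20 were lower than on GS and 1 higher, beside 6.93% and 9.77% of all genes, and the median was -0.46 beside 0.07. The antiproliferative gene Btg2 was 7.92-fold, Plk2 4.66-fold and Ccng1 3.69-fold lower, and Xpc 2.18-fold higher. With arrays centred on their medians 5 were lower and none higher, Xpc standing at 0.87 on the log2 scale. Mdm2, a target of the same kind that was not in this list, stood at 0.34 in that comparison. Between ES and mGS, Cdkn1a was 2.92-fold higher, and Btg2 and the metabolic gene Tigar were 2.54-fold and 2.24-fold lower, among 22 genes. The shares over all genes were 6.9% higher and 5.13% lower.

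**Figure D4:**
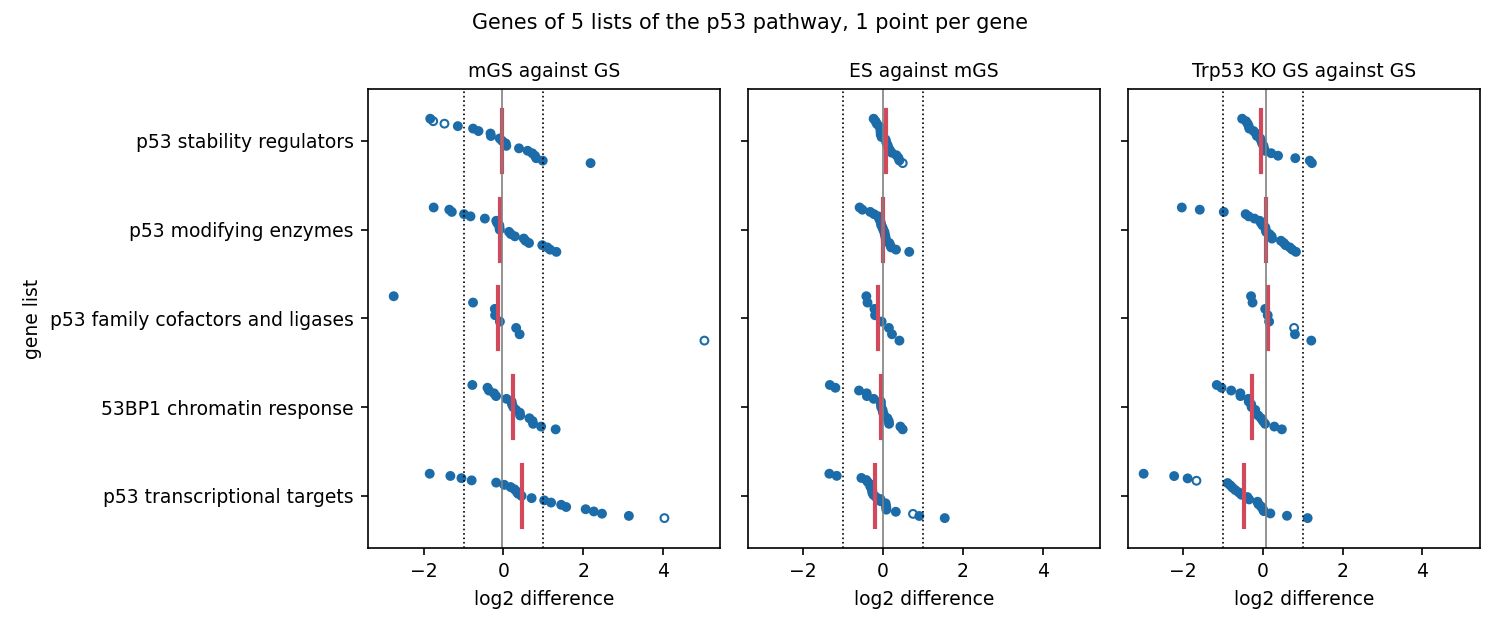
Log2 difference (horizontal axis) of each gene in 5 lists of the p53 pathway (vertical axis) for the 3 comparisons; open circles are bounds, red bars the median of a list, the grey line the median of all genes and dotted lines 2-fold. The target list has its median at 0.45 for mGS against GS and at -0.46 for the knockout against GS, while the lists of stability regulators and modifying enzymes have theirs between -0.09 and 0.07.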

How the data were processed

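The deposited values are intensities on a linear scale, 1 for each probe set on each array; per the labels' protocols, Trizol RNA was made into biotin-labelled cRNA by the usual Affymetrix method. Software for summarising probes: not given in the sources used here. After trimming 2% of values at each end every array has a mean of 500, so the arrays had been scaled before deposit. Of 45101 probe sets, 64 controls were set aside. Log2 intensities were quantile normalised over the 4 arrays, which hides any change in total RNA. Symbols came from the platform annotation: of the probe sets used, 34945 had 1 symbol, 932 several and 9160 none here. Of the 34945, 34741 had a gene identifier found in the gene table of GRCm38.p6 and took the symbol given there, changed or not. No named probe set gave Trp53, so it is not reported here. A gene took its brightest probe set. Values under the array median were raised to it, which turns a difference into a bound ("at least"); where both values were under it, none was computed. The threshold for counting was 2-fold.

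Probe set spread was the within-gene standard deviation of log2 differences over the 2 brightest detected probe sets. Named genes were all members, the 3 closest profiles per member, and up to 3 genes per direction and list past 2-fold. Members and lists were chosen with earlier results of these data known. L3mbtl1, Shld3, Rpl5, Rpl23 and Bax of the pathway lists had no named probe set in use. Nor did Nanos2, Insl3, Dsg3, Mcidas and Gmnc of the marker lists. Alternatives were the values as deposited, median centring, the mean of probe sets, leaving out _x_at and _s_at probe sets, a 30th or 60th percentile floor, none at all and a pseudocount of 32. The steps were tested on simulated data. Python 3.11.15, numpy 2.4.6, pandas 2.3.3 and matplotlib 3.10.9 were used.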

Additional observations from a re-analysis of the deposited data

How the results depend on the processing

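The count of member genes at least 2-fold apart between mGS and GS was 1 in the main setting, 2 with a floor at the 30th percentile and 3 without a floor, where Trp73 and then Trp63 joined with values under the array median; it was 1 under the other alternatives run. That gene was Trp53bp1 in all of them except the mean of all probe sets, where it was Mdm2, on the higher side, and Trp53bp1 stood at -0.91. Between ES and mGS the count was 0, and it was 1 with centred arrays, without _x_at and _s_at probe sets, with the 30th percentile floor and without a floor. Between knockout and GS it was 0, and it was 1 with the mean of all probe sets, which averages in probe sets that are not detected. For the division by medium it was 1, and it was 0 with values as deposited, with centred arrays and with the mean of all probe sets; in the last the smallest gap of Trp53bp1 reversed to 0.20. Averaging only probe sets detected on all arrays, an alternative chosen after seeing the data, kept the gap at -1.20. Detected probe sets numbered 14 on mGS, 14 on ES, 14 on the knockout and 11 on GS with the lower floor, and 6 on each array with the 60th percentile. The percentile of the floor fixes the share of all probe sets that pass it on each array. Of the differences of single genes, Trp53bp1 between mGS and GS ranged from -1.29 to -0.91 over 9 alternatives, and Mdm2 between knockout and GS from 0.05 to 1.35. Under centring the all-gene median moved by -0.16 in the knockout comparison and by -0.11 in that of ES and mGS. No paired analysis was possible because each group has 1 array. Signals near the array median limit what can be said of Trp63, Trp73 and the dim probe sets.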

Other observations

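Other genes named for p53 or Mdm, chosen by symbol after the values were seen, gave 10 genes beside the members, of which 9 were compared. None was 2-fold apart between mGS and GS, where the shares over the whole array were 15.3% on the higher side and 16.5% on the lower. None was between ES and mGS either, where these shares were 6.9% and 5.13%. Between knockout and GS they were 9.77% and 6.93%, and 1 of the 9 was higher, near the general share. That gene was Trp53inp2, which encodes an autophagy protein and read 384 on GS, 1082 on the knockout, 257 on mGS and 340 on ES, 2.81-fold higher on the knockout. Mdm1, which encodes a centriole protein, read 834 on GS, 956 on the knockout, 437 on mGS and 253 on ES. Its order over the arrays was high in both GS cultures and low in both ES-medium cultures, as for Trp53bp1. Mtbp, which encodes a protein first found by its binding to Mdm2, read 410 on GS, 323 on the knockout, 560 on mGS and 607 on ES, the opposite order. Trp53tg5 was not detected on any array.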
